A study of Mus musculus with 6 samples.

Results

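The adaptors, kinase and phosphatases that couple to SLAM family receptors were examined at the transcript level in sorted germinal centre B cells. They were the 7 genes of the deposited table whose symbol is Sh2d1a, Sh2d1b1, Sh2d1b2, Fyn, Inpp5d, Ptpn6 or Ptpn11, of 55421 genes listed. They were chosen by name and function, with earlier results of these data known. Of the 7, 6 reached the minimum for testing, a mean of 10 normalized reads over all libraries. Sh2d1b2 did not reach it. The 3 wildtype libraries and the 3 SFR KO libraries all came from C57BL/6 mice carrying an AID-GFP reporter, which marks cells that express activation-induced deaminase. All received NP(18)OVA, a hapten-coupled ovalbumin, in alum, and GFP-positive spleen cells were sorted on day 9. The SFR KO mice carry a germline deletion with 1 end in intron 1 of Cd244 and the other in exon 8 of Slamf6, which covers Cd244, Ly9, Slamf7, Cd48, Slamf1, Cd84 and Slamf6. None of the 7 genes examined here lies inside it, and the sources used here give neither age nor sex. Whether every library stands for its own animal is not stated, so the tests below weigh differences against a spread among libraries that may be technical.

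Most SLAM family receptors, but not all, carry tyrosine switch motifs in their cytoplasmic tails, and SH2 domain proteins dock on these once they are phosphorylated. SAP, the product of Sh2d1a, is almost a bare SH2 domain that recruits the Src kinase Fyn, while the related adaptors EAT-2 (Sh2d1b1) and ERT (Sh2d1b2) have short tails with tyrosines of their own. When no adaptor is bound, the same motifs can bind the tyrosine phosphatases SHP-1 (Ptpn6) and SHP-2 (Ptpn11) and the inositol lipid phosphatase SHIP-1 (Inpp5d), which are also used by other inhibitory receptors of B cells. SAP is best known from T cells and natural killer (NK) cells, where its loss causes X-linked lymphoproliferative disease in humans.

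The libraries held 28269310 to 33053024 reads in genes. Libraries of a group differed pairwise by a chi-square of 6.11 to 24.9 per gene, far beyond sampling noise, and SFR KO 1 lay farthest from its group. It differed from SFR KO 2 and 3 by 16.9 and 24.9, while those differed by 6.11. Of the 9 SLAM receptor genes, the 7 in the deletion were lower in SFR KO libraries in limma's test (edgeR and DESeq2 each called 6 of the 9), and Slamf8 and Slamf9, outside it, were not called. All 7 deleted receptors had their highest wildtype value in wildtype 1. Transcripts of germinal centre B cells were abundant in all 6 libraries. All 12 markers had reads in every library. Their sum ran from 358325 to 367053 normalized reads in wildtype and from 368314 to 376598 in SFR KO. Limma called 0 of the 12 (0.465% of all tested genes), edgeR 0 (0.221%) and DESeq2 1 (4.84%). The unadjusted limma p was under 0.05 for 2, against 16.1% of all tested genes. Without overlap of the groups, 3 were higher and 1 was lower in SFR KO, against 9.78% and 11.9% of all tested genes.

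The sequences of the EAT-2 pair come first because they set how well reads of these copies can be told apart. Sh2d1b1 (chromosome 1, 170277320 to 170286769, plus strand, GRCm38) and Sh2d1b2 (chromosome 1, 170232749 to 170253608, plus strand) lie side by side, 1272 kb and 1306 kb before the start of the deleted segment. Their coding sequences are both 396 bases long and differ at 37 positions, an identity of 90.7%. The first 154 coding bases are identical. Shown is the stretch of 90 coding bases inside 1 exon with the most differences, coding bases 253 to 342, with capitals at the 20 positions that differ. It lies at chr1:170283189-170283278 in Sh2d1b1 and at chr1:170250083-170250172 in Sh2d1b2.
Sh2d1b1: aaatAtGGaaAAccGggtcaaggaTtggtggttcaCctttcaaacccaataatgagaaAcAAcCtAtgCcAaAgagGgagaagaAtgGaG
Sh2d1b2: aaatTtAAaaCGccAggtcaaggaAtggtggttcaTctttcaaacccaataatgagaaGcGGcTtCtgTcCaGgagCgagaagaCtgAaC

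Over the whole transcripts the pair shared 90.1% of aligned bases. Of the 50-base words in the Sh2d1b2 transcripts, 13.1% also occurred in Sh2d1b1, and of 75-base words 9.56% did. The coding sequence of Sh2d1a, 378 bases long, was 63.5% identical to that of Sh2d1b1 and shared 0 words of 50 bases with either copy. Reads that fall in the shared words cannot be assigned to 1 copy, and neither the read length nor the handling of such reads is given in the sources. Values of Sh2d1b1 and Sh2d1b2 are uncertain to that extent.

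The region just before the genes is duplicated too. The bases below are those of the RefSeq promoter windows (GRCm38.p6) that match between the copies and precede the GENCODE start of both genes, 125 bases at chr1:170277129-170277253 for Sh2d1b1 and 128 bases at chr1:170232621-170232748 for Sh2d1b2, both on the plus strand. Capitals mark bases that differ or have no partner, and 87.2% of paired bases are identical. The stretch begins 191 bases before the GENCODE start of Sh2d1b1 and 128 bases before that of Sh2d1b2, so its distance to the start differs. Any link of these bases to the levels of the 2 genes, given next, was not tested.
Sh2d1b1: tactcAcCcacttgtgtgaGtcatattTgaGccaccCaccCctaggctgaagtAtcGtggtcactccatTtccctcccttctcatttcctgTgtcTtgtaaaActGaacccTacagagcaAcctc
Sh2d1b2: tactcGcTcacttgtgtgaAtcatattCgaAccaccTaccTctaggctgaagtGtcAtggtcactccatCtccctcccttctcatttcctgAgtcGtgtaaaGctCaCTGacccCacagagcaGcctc

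Levels of different genes were compared as normalized reads per kilobase of summed exon length. In wildtype libraries Ptpn6 stood highest of the 7 genes at 8079 ± 260 normalized reads per kb (mean ± SD, n = 3). Inpp5d followed at 2110 ± 24.1, then Fyn at 794 ± 20.97 and Ptpn11 at 632 ± 15.5. The adaptors were far lower, with Sh2d1b1 at 77.5 ± 28.0, Sh2d1a at 2.26 ± 0.846 and Sh2d1b2 at 2.24 ± 1.29 normalized reads per kb. Ranked by the mean over all 6 libraries among genes with a read, Ptpn6 lay above 99.4%, Ptpn11, the lowest of the phosphatase and kinase genes, above 88.9%, Sh2d1b1 above 66.6%, Sh2d1a above 36.1% and Sh2d1b2 above 32.7%. The order was the same in SFR KO libraries, at 7389 ± 247 for Ptpn6, 1915 ± 5.77 for Inpp5d, 731 ± 29.9 for Fyn, 591 ± 64.6 for Ptpn11, 96.9 ± 31.6 for Sh2d1b1, 4.13 ± 1.52 for Sh2d1a and 2.45 ± 1.84 for Sh2d1b2. Of neighbours in this order, only Sh2d1a and Sh2d1b2 had library values that overlapped. The sorted populations of both genotypes thus held many SHP-1 and SHIP-1 transcripts per kilobase and few of the SAP family, among which Sh2d1b1 was the leading one. With the longest transcript as the length, the wildtype levels of Inpp5d and Sh2d1a moved to 3248 and 4.52 normalized reads per kb, while Sh2d1b2 stayed at 2.24. The Sh2d1b1 level per kilobase of summed exons exceeded that of its neighbouring copy Sh2d1b2 by 16.3 to 80.9 times in single libraries.

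**Figure D1:**
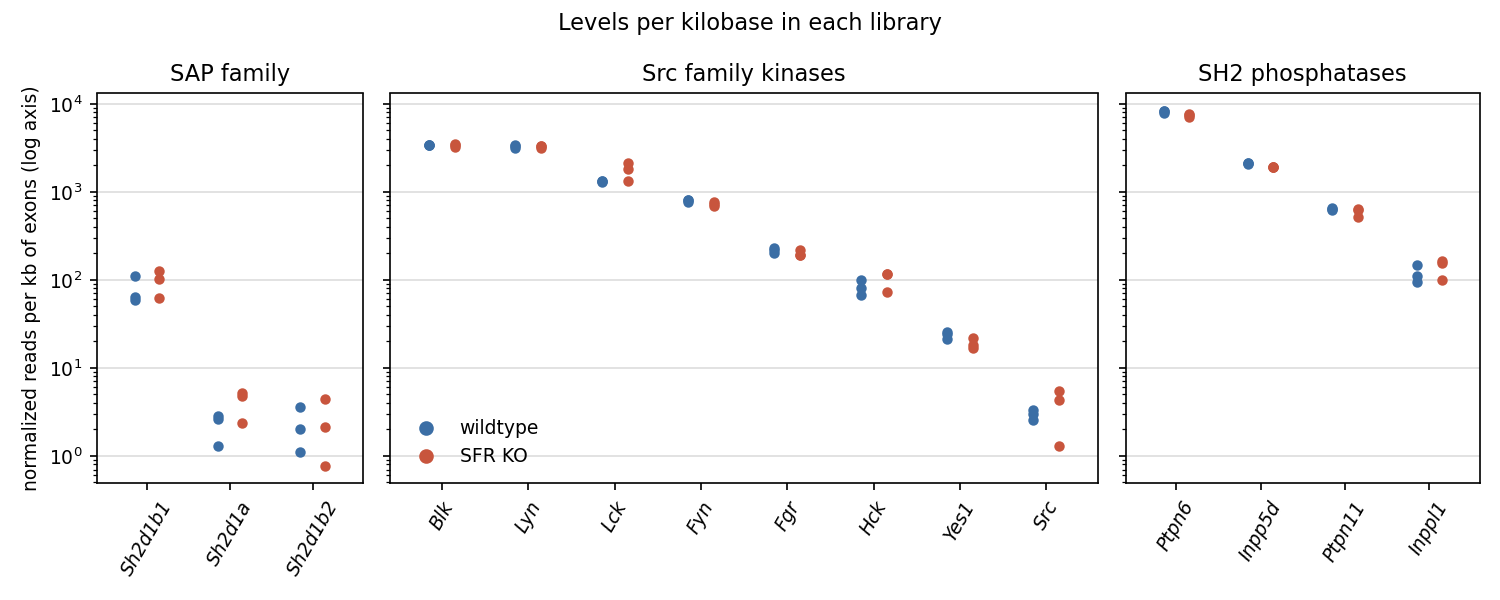
Normalized reads per kilobase of summed exon length (log axis) in each of 3 wildtype (blue) and 3 SFR KO (red) libraries, for the SAP family, the Src family kinases and the SH2 phosphatases with the SHIP-1 relative Inppl1. Ptpn6 lies near 8079 in wildtype, Fyn at 794 ranks below Blk, Lyn and Lck, and Sh2d1a and Sh2d1b2 lie near 2.

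The main question was whether loss of the receptors went with a change in the transcripts of the proteins that bind their tails. Limma called 0 of the 6 tested members at an adjusted p under 0.05, where it called 0.465% of all 13562 tested genes. Of the 6, 3 had an unadjusted p under 0.05, all lower in SFR KO libraries, against 16.1% of all tested genes in either direction and 9.07% that were lower. EdgeR called 0 of the 6 (0.221% of all genes), gave 2 of them an unadjusted p under 0.05 (15.9% of all genes), and DESeq2 called 0 (4.84% of the genes to which it gave an adjusted p, which left out Sh2d1a). Groups did not overlap for Fyn, Inpp5d and Ptpn6, all lower in SFR KO libraries, against 11.9% of tested genes that were lower without overlap, 9.78% that were higher and 21.7% in either direction. The difference was below 0 for 4 of the 6, against 50.7% of tested genes. The median log2 difference of the 6 was -0.11, and that of all tested genes -0.0030. In these bulk samples, fewer cells that hold a transcript and less of it per cell cannot be told apart.

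**Figure D2:**
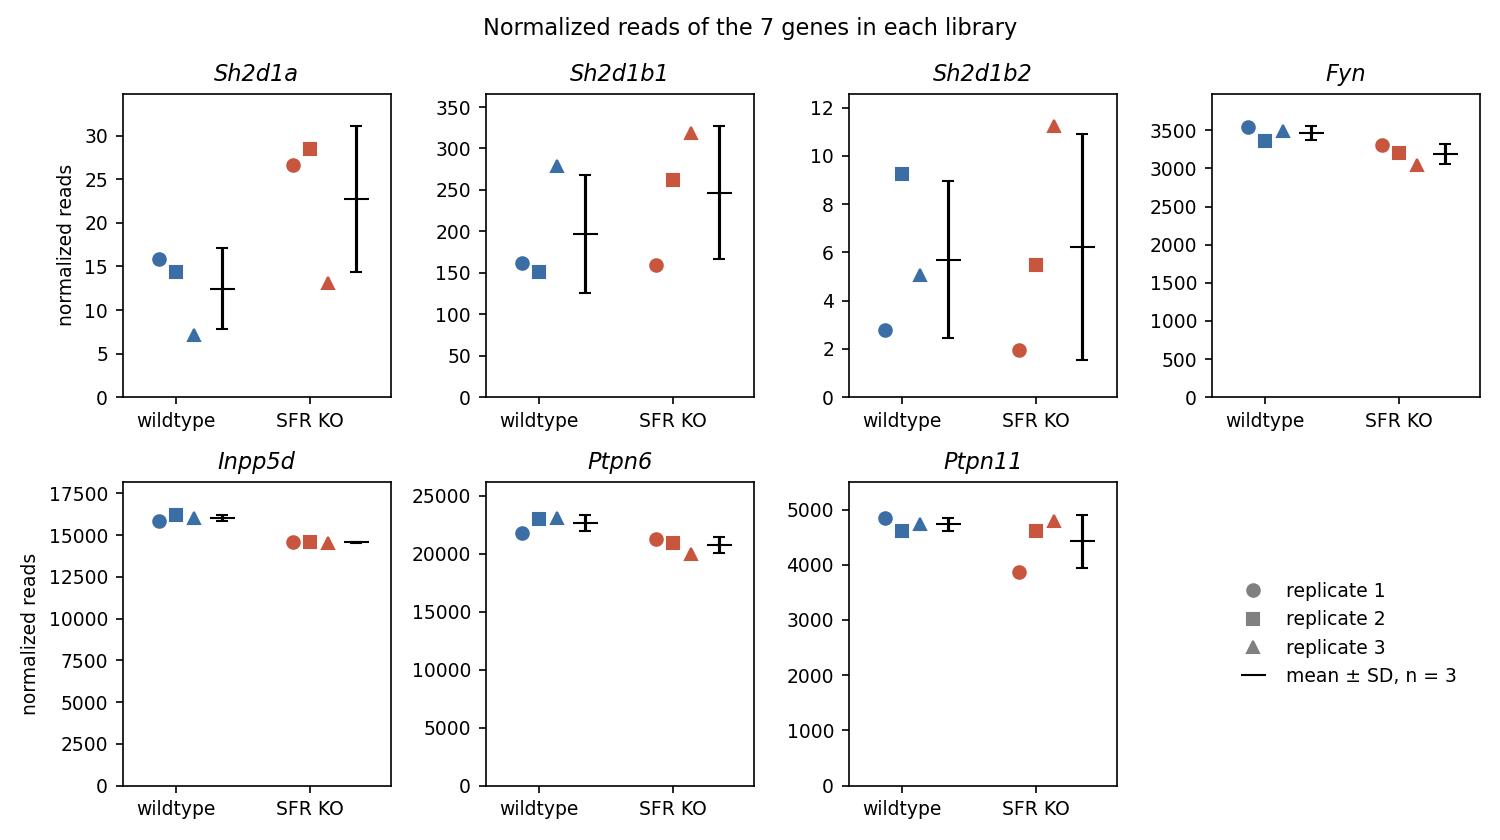
Normalized reads of each of the 7 genes (linear axis from 0) in each wildtype (blue) and SFR KO (red) library, with the symbol giving the replicate and black bars the mean ± SD of 3 libraries. The groups are apart for Fyn, Inpp5d and Ptpn6 by under 10% of their level, and overlap for the other 4 genes.

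Among the adaptors, Sh2d1a (chromosome X, 42502453 to 42529330) had 15.8, 14.4 and 7.11 normalized reads in wildtype 1, 2 and 3. It had 26.6, 28.5 and 13.1 in SFR KO 1, 2 and 3. SFR KO 3 lay within the wildtype range, and the other SFR KO libraries lay above it. These values rest on 38 wildtype and 67 SFR KO reads, a ratio of 1.79 scaled to library size with an exact binomial 95% interval of 1.18 to 2.73 that covers counting error only. The libraries of a group varied by 37.5% in wildtype and 36.9% in SFR KO (coefficient of variation), where counting alone would give 23.9%. With that spread the log2 difference was 0.82 ± 0.45 (SE), with a 95% interval of -0.19 to 1.83 and a limma adjusted p = 0.417. It was 0.49 without wildtype 3 and 1.16 without SFR KO 3. A difference of this size was not distinguishable at this depth from the spread between libraries.

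Because SAP is abundant in T cells, T cell transcripts were set beside it. All 19 T cell markers had reads in all 6 libraries, so none was at 0. The list summed to 3828 to 4418 normalized reads in wildtype and 4409 to 4589 in SFR KO libraries, of which Cd2 made up most. Over all libraries Cd2 had a mean of 2980, and the next highest marker, Cd4, a mean of 161. The sum thus follows Cd2 and is not a measure of T cell RNA. The 7 genes of the T cell receptor complex in the list, picked out after their values were seen, summed to 624, 458 and 272 in wildtype 1, 2 and 3 and to 648, 776 and 646 in SFR KO 1, 2 and 3. Among the 19 markers 15 had a log2 difference above 0, and the median was 0.61. Limma, edgeR and DESeq2 each called 0 of them, against 0.465%, 0.221% and 4.84% of all genes. DESeq2 gave some of the markers no adjusted p. An unadjusted limma p under 0.05 was found for 6, against 16.1% of all tested genes in either direction. All 6 were higher in SFR KO libraries, as were 7.04% of all tested genes at that p, and 4 of the 19 were higher without overlap, against 9.78% of all genes. Cd8a, Cd8b1, Lat and Cd2 had differences below 0. Wildtype 3 was lowest and SFR KO 2 highest both for Sh2d1a and for the T cell receptor complex. SFR KO 1 and SFR KO 3 had nearly the same complex sum, 648 and 646, but 26.6 and 13.1 normalized reads of Sh2d1a. The part of T cell RNA in the Sh2d1a values was not tested.

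Sh2d1b1, which encodes EAT-2, was at 162, 151 and 279 normalized reads in wildtype 1, 2 and 3. It had 160, 262 and 318 in SFR KO 1, 2 and 3. The libraries fell at a lower level, near 151 to 162, and a higher one, 262 to 318, and each level held libraries of both genotypes. The spread within groups was 36.1% in wildtype and 32.6% in SFR KO, against 6.70% from counting, so the differences between libraries of a genotype were far larger than counting error. The log2 difference between genotypes was 0.32 ± 0.29 (95% interval -0.33 to 0.97, limma adjusted p = 0.642). Leaving out SFR KO 1 gave 0.60, and leaving out SFR KO 3 gave 0.11.

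NK and myeloid cells are known sources of EAT-2. NK cell markers summed to 221, 133 and 146 normalized reads in wildtype 1, 2 and 3 and to 140, 117 and 89.9 in SFR KO 1, 2 and 3. Of the 5 NK markers tested, 4 had a log2 difference below 0, against 50.7% of all tested genes, and the median was -0.73. The unadjusted limma p of 1, lower in SFR KO libraries, was under 0.05, against 16.1% of all tested genes and 9.07% that were lower. Without overlap of the groups, 2 were lower and 0 higher in SFR KO libraries, against 11.9% and 9.78% of all tested genes. Limma and edgeR each called 0, against 0.465% and 0.221%. DESeq2 gave no adjusted p to any of the 5 and so could call none. The NK receptor gene Ncr1 was at 0 in SFR KO 2, and all other NK markers had reads in every library. Myeloid markers summed to 5420, 1634 and 1297 in wildtype and to 2838, 1093 and 1376 in SFR KO libraries. Of the 7 myeloid markers tested, 0 had an unadjusted limma p under 0.05, against 16.1% of all tested genes. Limma, edgeR and DESeq2 each called 0, against 0.465%, 0.221% and 4.84%. The 3 libraries with the most Sh2d1b1, wildtype 3, SFR KO 2 and SFR KO 3, held the 3 lowest myeloid sums. SFR KO 3, with the most Sh2d1b1 of all, held the lowest NK sum. Wildtype 3, next in Sh2d1b1 at 279, had an NK sum of 146, below that of wildtype 1 only. The part of NK or myeloid RNA in the Sh2d1b1 values was not tested.

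**Figure D3:**
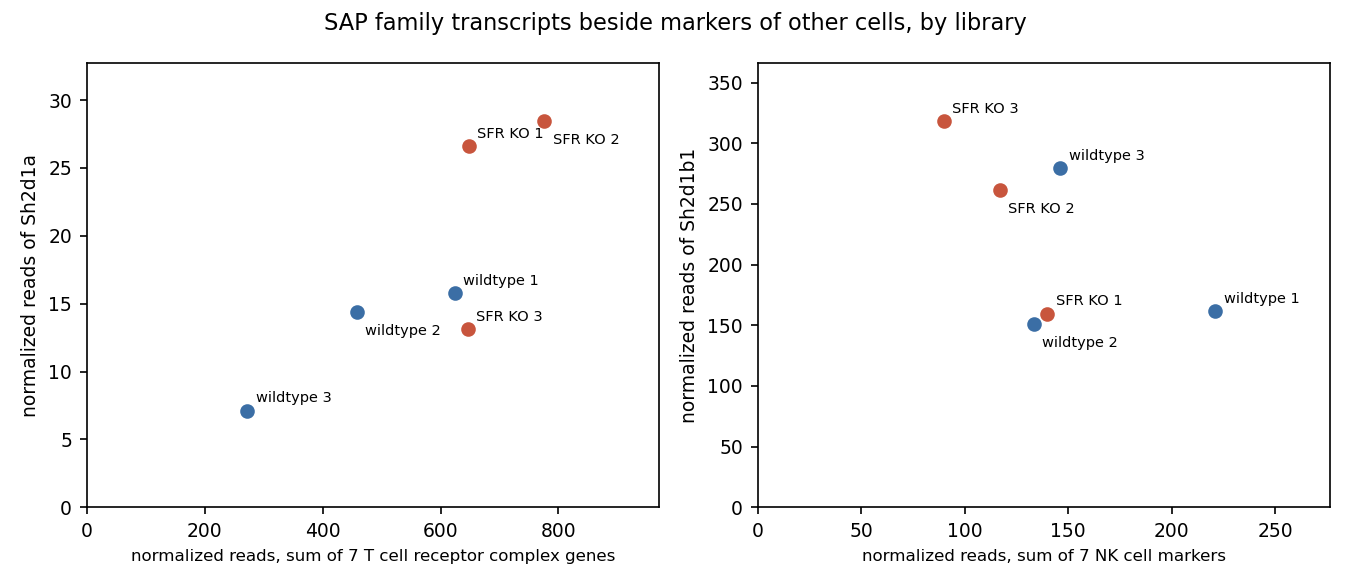
Left, normalized reads of Sh2d1a against the summed normalized reads of 7 T cell receptor complex genes in each library; right, normalized reads of Sh2d1b1 against the sum of 7 NK cell markers (wildtype blue, SFR KO red, linear axes from 0). The 7 T cell receptor complex genes were picked after their values were seen. On the left wildtype 3 is lowest on both axes. SFR KO 1 and SFR KO 3 have nearly the same sum, 648 and 646, at Sh2d1a values of 26.6 and 13.1. On the right SFR KO 3 has the highest Sh2d1b1 value and the lowest NK sum, while wildtype 3 is high on both axes (279 and 146).

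Normalized reads of Sh2d1b2, the ERT gene, were 2.79, 9.23 and 5.08 in wildtype 1, 2 and 3. They came to 1.97, 5.47 and 11.2 in the SFR KO libraries. The ranges of the groups lay almost on top of each other. With 17 wildtype and 19 SFR KO reads the scaled ratio was 1.13, with an exact binomial 95% interval of 0.557 to 2.32 that covers counting error only. The libraries varied by 57.3% in wildtype and 75.1% in SFR KO, where counting alone would give 40.8%. The ratio was 0.648 without SFR KO 3, 0.888 without wildtype 1 and 1.63 without wildtype 2. The direction of the ratio thus rested on single libraries.

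Fyn (chromosome 10, 39368855 to 39565381), the Src kinase that SAP brings to the receptors, had 3543, 3363 and 3485 normalized reads in wildtype libraries. It had 3308, 3208 and 3049 in SFR KO libraries. Every SFR KO value lay below every wildtype value, with the nearest pair, wildtype 2 and SFR KO 1, close together. The log2 difference was -0.12 ± 0.05, an interval of 0.848 to 0.998 times wildtype, and limma's adjusted p was 0.302. The interval includes only decreases, but the gene did not pass the threshold once all 13562 genes were taken into account.

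Fyn is a minor Src kinase in these cells. Its level per kilobase made up 8.68 ± 0.224% of the summed level of 8 Src family kinases in wildtype libraries against 7.75 ± 0.671% after deletion of the receptors (mean ± SD, n = 3). Blk and Lyn, the kinases that first phosphorylate the B cell receptor, made up 37.3 ± 0.648% and 36.0 ± 1.135% in wildtype and 35.6 ± 0.659% and 34.7 ± 2.08% in SFR KO libraries. Lck, best known as the Src kinase of T cells, followed with 14.5 ± 0.529% and 18.4 ± 3.27%. Of the 7 Src kinases other than Fyn, 0 were called by limma or edgeR and 1 by DESeq2, and the unadjusted limma p of 1 was under 0.05, against backgrounds of 0.465%, 0.221%, 4.84% and 16.1%. The log2 difference was -0.01 ± 0.05 for Lyn (limma adjusted p = 0.96) and -0.02 ± 0.05 for Blk (0.896); the sign of both changed in some settings. The DESeq2 call was Lck, named after its value was seen, at 3797, 3903 and 3927 normalized reads in wildtype and 3920, 5288 and 6155 in SFR KO libraries. SFR KO 1 lay within the wildtype range, and limma's log2 difference was 0.38 ± 0.13 (adjusted p = 0.218; DESeq2 0.0158). T cell markers, given above as a whole list, had reads in every library, and their part in the Lck values was not tested.

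Among the phosphatases, Inpp5d (chromosome 1, 87620312 to 87720507) had the smallest spread. This gene encodes SHIP-1, which removes a phosphate from the membrane lipid made by phosphoinositide 3-kinase. It was at 15867, 16231 and 16015 normalized reads in wildtype libraries and at 14573, 14596 and 14511 in SFR KO libraries. The groups were clearly apart, and the libraries within each agreed closely. Their coefficient of variation was 1.143% in wildtype and 0.301% in SFR KO, the latter smaller than the 0.806% that counting alone would give, so that the agreement of those 3 values cannot be read as the true spread. Limma, which shares the estimate of spread across genes, gave a log2 difference of -0.14 ± 0.04, an interval of 0.850 to 0.970 times wildtype, and an adjusted p = 0.164. DESeq2's adjusted p was 0.0632, and an adjusted p of 0.0874 stands in the authors' deposited table, both over the threshold. With each library's trend with GC content removed, the log2 difference was -0.09 ± 0.04 (limma adjusted p = 0.358). The longest transcript of Inpp5d has a GC content of 53.6%, against a median of 49.4% over tested genes.

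Ptpn6 (chromosome 6, 124720707 to 124738714) encodes SHP-1, the phosphatase that dampens B cell receptor signals below CD22 and CD72. It had 21799, 23016 and 23097 normalized reads in wildtype libraries and 21265, 20917 and 19932 in SFR KO libraries. The groups did not overlap, although wildtype 1 came within a few percent of SFR KO 1. The log2 difference was -0.13 ± 0.05, an interval of 0.846 to 0.989 times wildtype (limma adjusted p = 0.249). It was -0.07 ± 0.05 with the GC trend removed (adjusted p = 0.538), and Ptpn6 has the highest GC content of the 7 genes, 54.9%. The ratio of Inpp5d to Ptpn6 per kilobase, which no scaling of libraries can alter, was 0.261 ± 0.00646 in wildtype and 0.259 ± 0.00809 in SFR KO libraries. That of Ptpn6 to Fyn was 10.2 ± 0.55 and 10.1 ± 0.0906. Library values of both ratios overlapped between genotypes, and the exact two-sided permutation p was 0.8 for each (0.933 after Benjamini-Hochberg adjustment over the 7 ratios compared). Among the other ratios, the lowest exact permutation p was 0.2, for Lyn over Fyn, at 4.16 ± 0.214 and 4.49 ± 0.225. That of Inpp5d to its relative Inppl1 was 18.5 ± 4.04 and 14.4 ± 4.08 (exact permutation p = 0.3), and both have an adjusted value of 0.933. With 3 against 3 libraries no exact p can go below 0.1, so these tests could not have reached the threshold.

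Ptpn11 (chromosome 5, 121130533 to 121191397) encodes SHP-2, which unlike SHP-1 mostly promotes growth factor signalling through Ras. It had 4846, 4614 and 4741 normalized reads in wildtype libraries and 3876, 4611 and 4789 in SFR KO libraries. Only SFR KO 1 was clearly low, and SFR KO 3 lay inside the wildtype range. The log2 difference was -0.10 ± 0.08 (interval 0.827 to 1.05 times wildtype, limma adjusted p = 0.559), and without SFR KO 1 it was -0.01 ± 0.05.

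**Figure D4:**
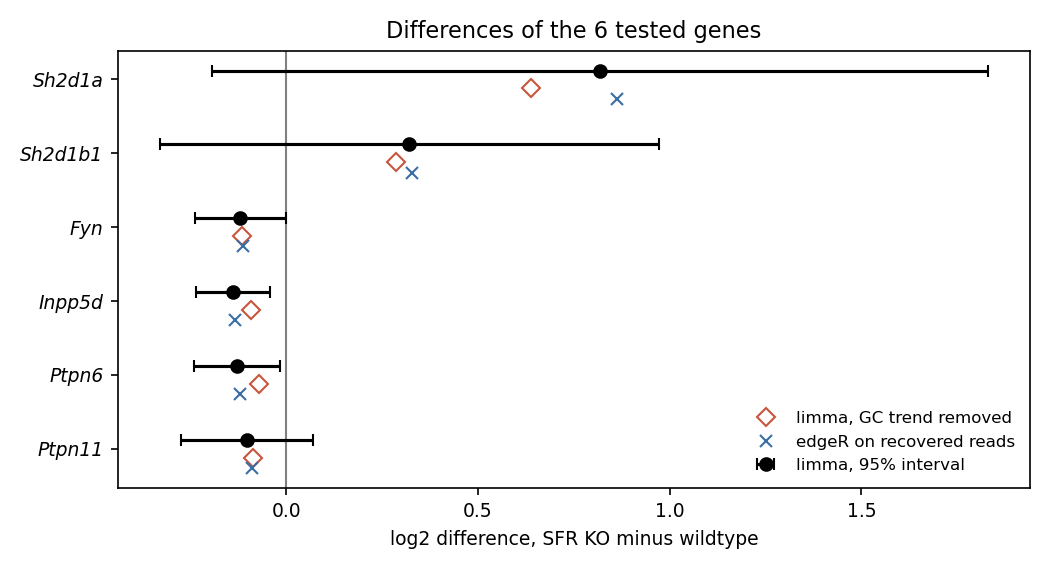
Log2 difference of SFR KO minus wildtype for the 6 tested genes, from limma with its 95% interval (black), from limma with the GC trend of each library removed (open red diamonds) and from edgeR on recovered reads (blue crosses). Fyn, Inpp5d and Ptpn6 lie between -0.14 and -0.12 with narrow intervals below 0, while the intervals of Sh2d1a and Sh2d1b1 are wide and include 0.

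The rest of the pathway was read from 9 lists, which together held 94 tested genes. Limma called 9 of them lower and 1 higher in SFR KO libraries, and 7 of the 9 were the deleted receptors. Outside the receptor list 2 of 85 tested genes were lower, where 0.310% of all tested genes were, and 1 was higher, where 0.155% were. The lists were chosen with earlier results of these data known, so these counts are a description only. The 2 that fell were Plcg1 and Sh2b3, and the 1 that rose was Cd72.

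Plcg1, a phospholipase that cleaves a membrane lipid to raise calcium and is a known partner of the EAT-2 tail, stood at 1020, 1101 and 1011 normalized reads in wildtype and at 768, 708 and 723 in SFR KO libraries, so the groups were well apart. The log2 difference was -0.51 ± 0.07 (limma adjusted p = 0.0318). It is 1 of 14 genes in the list of SAP and EAT-2 effectors. Of these, limma called 1 lower and 0 higher, against 0.310% and 0.155% of all tested genes. EdgeR called 1 and DESeq2 3, against 0.221% and 4.84%. An unadjusted limma p under 0.05 was found for 5, against 16.1% of all tested genes. Of those 5, 4 were lower (9.07% of all tested genes) and 1 was higher (7.04%). Of the 14, 11 had values below 0, and the median was -0.09 against -0.0030 for all genes. Plcg2, the form that dominates in B cells, stood at 28293 ± 1299 and 25086 ± 426 normalized reads (limma log2 difference -0.17 ± 0.05, adjusted p = 0.155; DESeq2 0.0323). The third DESeq2 call was Vav1, an exchange factor for small GTPases named after its value was seen, at 8685 ± 481 and 7547 ± 17.9 normalized reads (limma adjusted p = 0.122). With the GC trend removed 1 of the 14 was called, but it was Malt1, a protease of antigen receptor signalling named after its value was seen, at -0.36 ± 0.05 (limma adjusted p = 0.0342; -0.15 ± 0.06 and 0.271 without the removal). The Plcg1 call was lost in that setting (-0.46 ± 0.07, limma adjusted p = 0.0772) and with any single library but SFR KO 1 left out (adjusted p up to 0.177).

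Sh2b3, which encodes LNK, an adaptor that restrains cytokine receptor kinases, fell from 5579 ± 114 to 4450 ± 123 normalized reads (mean ± SD, n = 3; log2 -0.33 ± 0.05, limma adjusted p = 0.0322). It was the 1 of 8 tested other SH2 adaptors that passed, in limma, edgeR and DESeq2 alike, against 0.465%, 0.221% and 4.84% of all genes. Its relative Sh2b2 differed by -0.09 ± 0.12 on the log2 scale (limma adjusted p = 0.774), and the list had a median of -0.12. The Sh2b3 call was lost with the GC trend removed (-0.26 ± 0.05, limma adjusted p = 0.107) and with any single library but SFR KO 1 left out (adjusted p up to 0.177).

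Cd72, an inhibitory receptor whose tail recruits SHP-1, was measured at 3862, 3765 and 4262 normalized reads in wildtype and at 4973, 5646 and 6219 in SFR KO libraries. All SFR KO values lay above all wildtype values (log2 difference 0.50 ± 0.08, limma adjusted p = 0.0477), and the difference was 0.56 with the GC trend removed (adjusted p = 0.0407). It missed the threshold in edgeR (adjusted p = 0.0527) and with any single library but SFR KO 1 left out (limma adjusted p up to 0.206). The list drawn up for inhibitory receptors with ITIM tails held 14 tested genes, whose tails were not checked here. Of these, Cd72 was the 1 that rose in limma, and 0 fell, against 0.155% and 0.310% of all tested genes. EdgeR called 0 and DESeq2 1, against 0.221% and 4.84%. The unadjusted limma p of 5 was under 0.05 (16.1% of all tested genes), with 3 higher (7.04%) and 2 lower (9.07%). Without overlap of the groups, 2 were higher and 1 was lower, against 9.78% and 11.9%. Cd22, which also docks SHP-1, stood at -0.07 ± 0.06 (limma adjusted p = 0.571).

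Limma and edgeR called 0 genes in each of the 4 remaining lists. Their counts below stand against 16.1% of all genes with an unadjusted limma p under 0.05 and 4.84% called by DESeq2. Among 13 tested non-receptor tyrosine phosphatases, the relatives of SHP-1 and SHP-2, the unadjusted limma p of 2 was under 0.05, 1 was a DESeq2 call and the median log2 difference was -0.04. Ptpn1 stood at -0.09 ± 0.10 and Ptpn7 at 0.08 ± 0.06 (limma adjusted p = 0.702 and 0.612). The DESeq2 call, named after its value was seen, was Ptpn14, at 51.1, 26.7 and 53.8 normalized reads in wildtype and 63.1, 82.1 and 223.8 in SFR KO libraries (limma adjusted p = 0.214; DESeq2 0.0212). Its SFR KO mean rested largely on SFR KO 3. Among 12 tested inositol lipid phosphatases, the relatives of SHIP-1, 3 had an unadjusted p under 0.05, DESeq2 called 1 and the median was 0.01. Inpp5f stood at -0.17 ± 0.08 (limma adjusted p = 0.35). The DESeq2 call, named after its value was seen, was Inpp5e, at 577 ± 30.1 and 434 ± 15.8 normalized reads (limma adjusted p = 0.0701; DESeq2 0.0177). Among 10 tested regulators of Src kinases, 2 had an unadjusted p under 0.05, DESeq2 called 0 and the median was -0.10. Ptprc, the CD45 phosphatase that activates Src kinases, stood at 0.0028 ± 0.06 and Csk, which inhibits them, at -0.10 ± 0.06 (limma adjusted p = 0.988 and 0.461). Among 8 tested phosphatase docking adaptors, 0 had an unadjusted p under 0.05, DESeq2 called 0 and the median was -0.02. Grb2 stood at 0.00082 ± 0.06 and Cd2ap at 0.05 ± 0.06 (limma adjusted p = 0.996 and 0.721).

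For each of the 6 tested members, the genes with the most similar pattern over the 6 libraries were taken from 8360 or 8361 named genes that averaged 200 normalized reads or more, by Pearson's r of log2 values. The 6 points share genotype and library, so such likeness is a description. The pattern of Sh2d1a was closest to Zfp984 (r = 0.995), Arid4b (0.990) and Ppp2r5c (0.989). That of Sh2d1b1, with its 2 levels across genotypes, was closest to Fgl2 (0.986), Serpina3g (0.985) and Gcc1 (0.985). Those close to Fyn included Rai1 (0.998) and Coa4 (0.995), and Ptpn6 was closest to Arhgap25 (0.984), Ccdc69 (0.983) and Rasal3 (0.983). Ptpn11 was closest to Fam168b (0.991), Chd3 (0.985) and Gpatch8 (0.985). Inpp5d was closest to Fbrs (0.999), Mknk1 (0.996) and Cd83 (0.995). An r over 0.9 was reached by 378 genes for Inpp5d, the most of the 6 members, and by 65 for Sh2d1a, the fewest.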

How the data were processed

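RNA-seq of 3 wildtype and 3 SFR KO libraries was used, grouped by the genotype in the labels, with replicates numbered in accession order. The submitters' processing notes name GRCm38, STAR 2.5, featureCounts 1.5 and DESeq2 1.14.1; annotation release, strand setting and filters are not stated there. The authors deposited read counts per gene normalized to library size as a signal, and their mean. The authors also deposited, per gene, a log2 fold change, its error, a score (the test statistic), and raw and adjusted p-values. Dividing each library by its smallest nonzero value gave back whole reads (100% of values, tolerance 1e-06).

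Limma 3.58.1 (lmFit, eBayes with a trend; R 4.3.3) was run two-sided on log2(normalized count + 1) for the 13562 genes averaging 10 normalized reads or more, with Benjamini-Hochberg adjustment over all of them and a threshold of 0.05. This scale understates changes of low genes. Differences are SFR KO minus wildtype, and a list is described by its counts and median. EdgeR 4.0.16 (quasi-likelihood) and DESeq2 1.42.0 were run on the recovered reads. Other alternatives were pseudocounts, filters, scalings, array weights, a robust prior, removal of each library's GC trend (natural spline, 4 degrees of freedom) and leaving out each library. Gene models came from GENCODE release M21 and promoters from RefSeq (GRCm38.p6, with entries for 6 of the 7 members); sequences were aligned with Biopython 1.88. Ratios of genes within a library were compared by exact permutation. Per-kilobase values used the union of a gene's exons. The steps were tested on simulated counts.

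The members and lists were chosen with earlier results of these data known. Named are the 7 members, the called genes of each list, filled up to 2 with its most abundant members, and the 3 genes with the pattern most like each tested member; a few of these are not reported here. The list of 6 plasma cell markers was measured for other cells in the sort. It summed to 29586 to 30242 normalized reads in wildtype and 32630 to 33227 in SFR KO libraries; limma and edgeR called 0 of 5 tested and DESeq2 1 (4.84% of all genes), and the unadjusted limma p of 3, 2 higher and 1 lower, was under 0.05 (16.1% of all genes). Its part in the results was not tested.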

Additional observations from a re-analysis of the deposited data

How the results depend on the processing

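The count of members called was 0 in every setting run. The log2 differences of the tested members kept their sign in all 17 alternative settings, or in 15 for Sh2d1a. Sh2d1a fell under the minimum mean of 50 and had no adjusted p in DESeq2, so those settings could not call it. Leaving out single libraries moved these differences between 0.49 and 1.16 for Sh2d1a, 0.11 and 0.60 for Sh2d1b1, -0.15 and -0.09 for Fyn, -0.15 and -0.13 for Inpp5d, -0.16 and -0.10 for Ptpn6 and -0.16 and -0.01 for Ptpn11, and the read ratio of Sh2d1b2 between 0.648 and 1.63. The lowest adjusted p of a member was 0.0632, for Inpp5d in DESeq2. With the longest transcript as the length the order of levels per kilobase was the same, but the wildtype level moved from 2.26 to 4.52 for Sh2d1a and from 2110 to 3248 for Inpp5d. Over all genes, 63 calls became 129 without a minimum, 98 with a minimum mean of 50, 30 with edgeR, 491 with DESeq2, 630 with array weights, 161 with a robust prior, 20 with the GC trend removed, and 11 to 501 with a library left out; the cause was not tested. The 501 came without SFR KO 1. The 10 calls in the pathway lists became 6 to 16 with a library left out. Small differences that missed the threshold changed sign: Sh2b2 with array weights (1.68e-05) and over the left-out libraries (-0.19 to 0.070), Lyn with upper quartile scaling (0.015) and libraries left out (-0.047 to 0.025), Blk with upper quartile scaling (0.0053), the GC trend removed (0.031) and libraries left out (-0.039 to 0.014), Ptprc (-0.11) and Cd2ap (-0.090) with the GC trend removed, and, with libraries left out, Ptprc (-0.024 to 0.048), Ptpn1 (-0.17 to 0.017) and Grb2 (-0.021 to 0.038). No paired analysis was possible because the labels give no replicate numbers. Depth limits Sh2d1a and Sh2d1b2, with 105 and 36 reads over all libraries.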
